A study of Mus musculus with 7 samples.

Results

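The 9 genes described here were listed as activating co-receptors and adhesion partners of T cells, a list name that need not hold for each: Cd2, Cd5, Cd6, Cd28, Icos, Cd226, Cd96, Cd44 and Cd69. They were taken as a list of names, and a region of the deposited Runx3 or H3K4me1 list was counted at a gene when its midpoint lay in the annotated gene body or within 20 kb of it. By that rule 17 of 4934 Runx3-bound regions and 129 of 76705 H3K4me1-marked regions lay at the 9 genes, out of 22350 protein-coding genes. The regions came from ChIP-seq of resting CD8+ T cells (CD8-TC) that anti-CD8 magnetic beads had enriched from spleens of wild-type ICR mice, 18 animals pooled, to a purity above 95%. Runx3 was precipitated in 2 biological repeats deposited as 3 samples, since the titles give 1 repeat as 2 files. The enhancer mark H3K4me1 (histone 3 monomethylated at lysine 4) had 2 samples, and non-immune serum (NIS) served as control in 2. No treatment and no second genotype enter the comparison. Each antibody yielded 1 list called on joined repeats, without score or read count, so the values carry no error between repeats, the depth behind a region is unknown, and no test between groups was possible. Intervals are exact binomial 95% intervals and cover counting error over regions only.

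The T-cell receptor alone gives a weak signal, and the outcome of its engagement is set by receptors that sit beside it. Cd28 and Icos, of the immunoglobulin superfamily, bind Cd80, Cd86 and Icosl on antigen-presenting cells and recruit phosphoinositide 3-kinase. Cd226 and Cd96 share the ligand Pvr. Cd2 is an adhesion receptor for Cd48, and Cd5 and Cd6 are scavenger-receptor cysteine-rich proteins that tune T-cell receptor signalling, with Alcam as the ligand of Cd6. Cd44 binds hyaluronan and is high on memory cells, and Cd69 is a C-type lectin that appears early after activation and retains lymphocytes in tissue. Runx3 is a Runt-domain transcription factor of the CD8 lineage and binds the core sequence TGTGGT.

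Every one of the 9 genes held at least 1 Runx3-bound region, against 19.8% of all protein-coding genes. With a margin of 5 kb the 17 regions fell to 10 and 8 genes held one, against 13.0% of all genes, and with 50 kb all 9 did, against 30.8%. Cd5 was the gene without one at 5 kb, and also where a region counted only for its nearest protein-coding TSS. With the 20 kb margin, 5 genes held 2 or more, against 4.67% of all genes. Cd28 held 4, Cd69 held 3, Cd5, Cd226 and Cd96 held 2 each, and Cd2, Cd6, Icos and Cd44 held 1 each. Only Cd28, Icos and Cd96 had a Runx3-bound region with its midpoint within 1 kb of the transcription start site (TSS), a feature of 3.74% of all genes. All 9 also held H3K4me1-marked regions, 6 to 25 of them, against 73.6% of all genes with at least 1. The genes were picked with earlier results of these data known, so these shares describe them and do not test them.

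Sequences of the bound regions are shown for the 3 promoters and for 3 further regions of Cd96 and Cd69 that hold RUNX words. Each is the reference sequence of build mm9 (the mice were ICR) over the 200 bp around the midpoint of a region, read 5′ to 3′ on the strand of the gene, except that the Cd96 promoter stops at 191 bp, 1 bp before the TSS. Capitals mark a match to a RUNX word, which was TGTGGT or TGTGGC or TGCGGT or TGCGGC on either strand (on the reverse strand ACCACA or GCCACA or ACCGCA or GCCGCA).
Cd28 promoter, chr1:60803002-60803201, plus strand: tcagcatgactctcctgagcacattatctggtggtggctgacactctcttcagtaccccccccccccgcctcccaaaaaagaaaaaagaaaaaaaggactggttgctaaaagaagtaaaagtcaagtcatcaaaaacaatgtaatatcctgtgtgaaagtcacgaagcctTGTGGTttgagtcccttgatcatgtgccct
Icos promoter, chr1:61034495-61034694, plus strand: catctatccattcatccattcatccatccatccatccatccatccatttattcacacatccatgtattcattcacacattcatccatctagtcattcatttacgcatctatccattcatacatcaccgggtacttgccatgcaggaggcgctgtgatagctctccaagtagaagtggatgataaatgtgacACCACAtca
Cd96 promoter, chr16:46120365-46120555, minus strand: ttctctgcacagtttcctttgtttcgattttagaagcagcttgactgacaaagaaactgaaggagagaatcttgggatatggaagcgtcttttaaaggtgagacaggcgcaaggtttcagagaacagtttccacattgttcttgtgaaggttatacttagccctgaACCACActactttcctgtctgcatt
Cd96 downstream region, chr16:46022430-46022629, minus strand: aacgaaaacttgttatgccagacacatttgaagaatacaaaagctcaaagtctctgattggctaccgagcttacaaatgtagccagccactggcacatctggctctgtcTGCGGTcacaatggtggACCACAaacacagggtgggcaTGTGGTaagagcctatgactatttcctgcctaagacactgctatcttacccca
Cd69 far upstream region, chr6:129234477-129234676, minus strand: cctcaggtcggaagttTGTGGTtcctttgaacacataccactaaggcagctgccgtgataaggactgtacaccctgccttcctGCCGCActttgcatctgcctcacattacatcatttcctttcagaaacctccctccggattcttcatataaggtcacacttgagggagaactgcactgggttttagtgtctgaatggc
Cd69 intronic region, chr6:129223747-129223946, minus strand: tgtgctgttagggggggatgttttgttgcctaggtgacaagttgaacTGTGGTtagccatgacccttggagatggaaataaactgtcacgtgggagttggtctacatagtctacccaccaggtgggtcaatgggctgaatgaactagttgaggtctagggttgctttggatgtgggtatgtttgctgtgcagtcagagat

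All 3 promoters carried the word TGTGGT or its reverse complement close to the TSS. In the Cd28 promoter it ended 25 bp upstream of the TSS on the coding strand, in the Cd96 promoter its reverse complement ended 20 bp upstream, and in the Icos promoter its reverse complement ended 80 bp upstream. Cd28 held a further match 59 bp and Cd96 one 42 bp downstream of the TSS. The Icos sequence is otherwise rich in repeats of a short cat-containing unit. The Cd96 downstream region held 3 matches in the 200 bp shown, separated by 11 and 15 bp, the highest number in such a window among the 17 regions. In the far upstream region of Cd69, 1 RUNX match abutted an ETS word (gap of 0 bp) and the other lay 2 bp from one.

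With the 20 kb margin Cd28 had the most Runx3-bound regions of the 9, 4 against 3 at Cd69. That order depends on how regions are assigned. Cd28 and Cd226 had 2 each with a margin of 5 kb, Cd69 had 5 against 4 at both Cd28 and Cd96 with 50 kb, and Cd28 and Cd69 had 3 each when protein-coding transcripts alone set the gene body. The Cd28 Runx3-bound regions were chr1:60759220-60760191 at -43.5 kb from the coding TSS, chr1:60802680-60803522 over the TSS itself, chr1:60833549-60834154 at +30.6 kb and chr1:60838317-60839048 at +35.5 kb. The far upstream region counted at Cd28 because the annotated gene (chr1:60773644-60830203) includes a non-coding transcript that starts upstream of the coding ones. It lay 13939 bp outside that gene body and is the one lost with protein-coding transcripts alone. Both downstream regions lay beyond the 3′ end, one in an exon of the non-coding gene Gm11579 and the other in an intron of the non-coding gene 2310016D23Rik. Only 0.206% of protein-coding genes held more than 4 Runx3-bound regions. H3K4me1 covered 26.4% of the Cd28 window of 96.6 kb in 11 regions, more than in 91.0% of genes. The widest of them, 7761 bp at chr1:60812222-60819982, lay in the gene body at +12.9 kb and held no Runx3-bound region.

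Icos, the neighbour of Cd28, had the sparsest mark of the 9. A single Runx3-bound region of 851 bp (chr1:61034169-61035019) spanned its TSS, with the midpoint 177 bp upstream. H3K4me1 covered 11.7% of the window, more than in 68.9% of genes, and none of the 20 kb downstream. The widest H3K4me1-marked region was 1213 bp. In the 204.6 kb between the end of Cd28 and the start of Icos, which contain the inhibitory receptor gene Ctla4, there were 4 Runx3-bound regions, among them the downstream regions of Cd28 and the promoter region of Icos, and 24 H3K4me1-marked regions over 17.9% of the length. Cd28 and Icos had 4 Runx3-bound regions against 1, and both had one at the promoter.

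Cd96 and Cd226, the receptors for Pvr, differed in where Runx3 and H3K4me1 lay. At Cd96 (chr16:46035770-46120364) 1 Runx3-bound region of 1208 bp, the widest of the 17, lay over the TSS at chr16:46119852-46121059. The other, chr16:46022006-46023053, lay 97.8 kb downstream of the TSS and 13241 bp past the 3′ end, and its nearest protein-coding TSS was that of Plcxd2 at 12198 bp. H3K4me1 covered 14.4% of the Cd96 window, in 8 regions. The gene body carried the mark over 15.1% of its length.

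At Cd226 (chr18:89366823-89439593) both Runx3-bound regions were intronic, chr18:89387183-89387961 at +20.7 kb and chr18:89414803-89415514 at +48.3 kb. H3K4me1 covered 39.2% of the Cd226 window in 25 regions, the highest number of the 9 genes, of which 22 lay in the gene body. The body carried the mark over 58.1% of its length, the upstream 20 kb over 9.3%, and the downstream 20 kb held none. The TSS of Cd226 lay 280 bp outside the nearest H3K4me1-marked region. The +20.7 kb region held no RUNX match over its whole 779 bp and 1 AP-1 word, and the +48.3 kb region held 2 RUNX matches.

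Cd2, Cd5 and Cd6 carried the highest H3K4me1 cover. The Cd2 window (gene chr3:101079822-101091862) was covered over 68.1%, more than in 99.9% of protein-coding genes. One H3K4me1-marked region of 22512 bp, chr3:101067939-101090450, ran over most of the gene and its 3′ flank, ranked 18 by width among all 76705, and covered the body together with its neighbour over 90.4%. The single Runx3-bound region of Cd2, chr3:101078565-101079489, lay inside it, with its midpoint 795 bp beyond the 3′ end. It held 2 RUNX words, of which neither lay wholly in the 200 bp around the midpoint, and 5 matches to the E-box word CACCTG.

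Cd5 and Cd6 are neighbours on chromosome 19, 50.4 kb apart, and the stretch between them, which holds the gene A430093F15Rik, was covered by H3K4me1 over 60% of its length. Both Runx3-bound regions of Cd5 lay in that stretch, chr19:10821934-10822650 at -8.8 kb and chr19:10825732-10826483 at -12.6 kb from the Cd5 TSS. Both were in an intron of A430093F15Rik, whose TSS was nearer, so Cd5 is the 1 gene of the 9 whose regions all lie closer to the start of another gene. The far one held no RUNX match. The Cd5 window (gene chr19:10792633-10813464) was covered over 53.9% and the Cd6 window (gene chr19:10863831-10904548) over 42.0%, more than in 99.4% and 97.9% of genes. The Runx3-bound region of Cd6 was intronic at +16.9 kb, whereas its widest H3K4me1-marked region, of 7511 bp (chr19:10856290-10863800), lay just beyond the 3′ end of the gene.

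Cd69 had the densest Runx3 of the 9, 0.624 regions per 10 kb of window, and 99.8% of protein-coding genes had fewer. Its gene (chr6:129217342-129225387) is short, 8046 bp. Of its regions, 2 lay upstream, chr6:129234119-129235033 at -9.2 kb and chr6:129233020-129233913 at -8.1 kb, only 205 bp apart and inside 1 H3K4me1-marked region of 4472 bp (chr6:129231463-129235934). They count as 1 when neighbours within 1000 bp are merged. The third, chr6:129223442-129224251, was intronic at +1.5 kb. H3K4me1 covered 24.8% of the window in 6 regions, the lowest number of the 9.

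Cd44 lay at the other end of that scale. Its gene of 90525 bp (chr2:102651298-102741822) held a single Runx3-bound region, intronic at +27.6 kb, which gave 0.0766 regions per 10 kb. The next Runx3-bound region outside the window was 781.0 kb away, the longest such distance among the 9. The distance was between 24.6 kb (Cd96) and 143.2 kb (Cd28) for the others. H3K4me1 nevertheless covered 32.5% of the Cd44 window in 22 regions, more than in 94.7% of genes, 17 of them in the body.

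**Figure D1:**
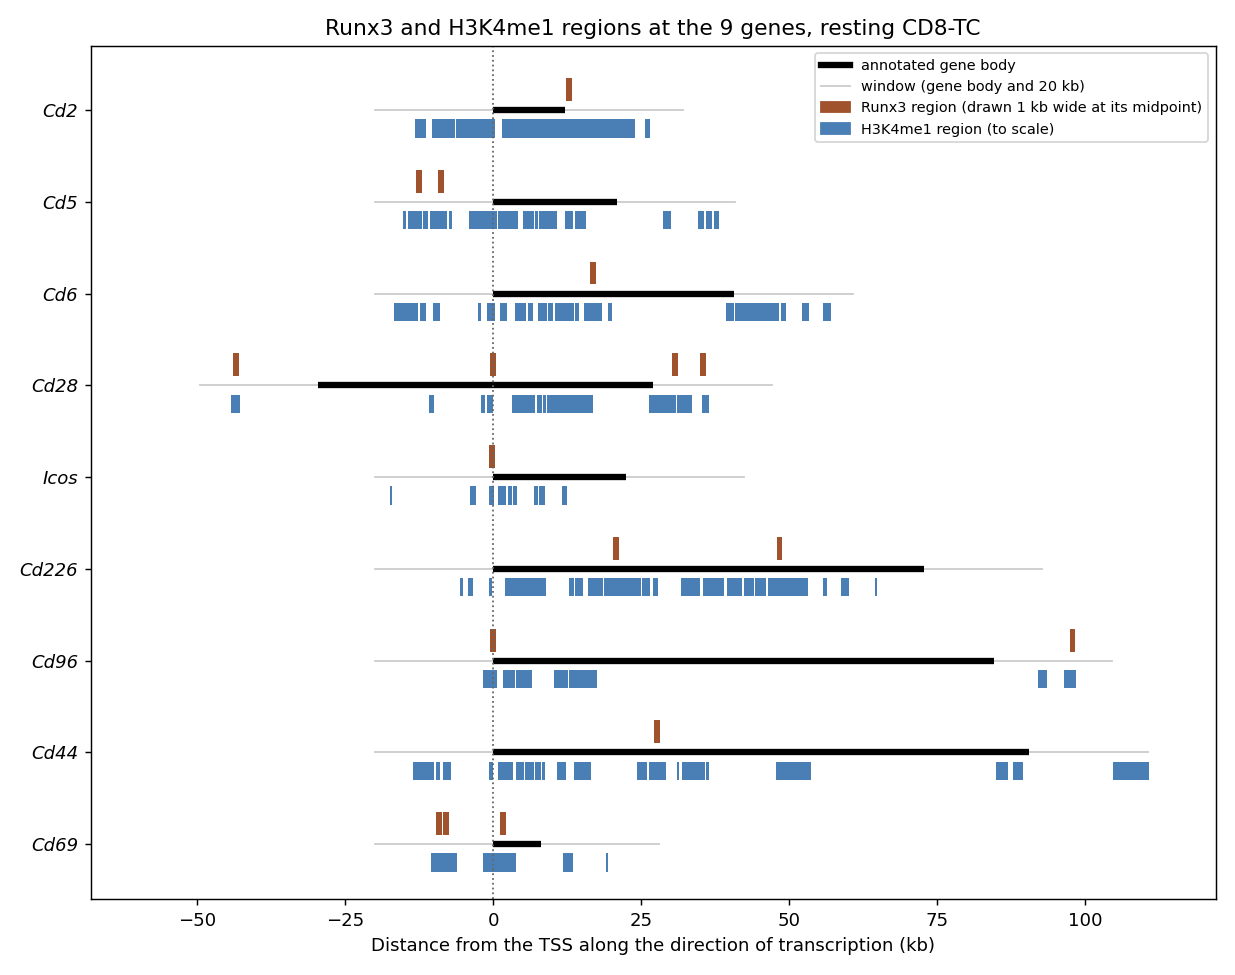
Map of the 9 genes aligned at the coding TSS, in kb along the direction of transcription (x axis), with the gene body as a black bar, the 20 kb window as a grey line, Runx3-bound regions in brown and H3K4me1-marked regions in blue. Runx3-bound regions lie at the TSS of Cd28, Icos and Cd96 and elsewhere at the other 6 genes, and every one of the 17 sits over H3K4me1.

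By position, 7 of the 17 Runx3-bound regions lay upstream of the gene, 6 in the body and 4 downstream. By distance from the TSS 3 lay within 1 kb, 1 at 1 to 5 kb, 6 at 5 to 20 kb and 7 beyond 20 kb. Measured to the nearest protein-coding TSS of any gene, 13 of 17 (76.5%) lay beyond 5 kb, near the 70.8% of all Runx3-bound regions. For 14 of the 17 the nearest protein-coding TSS was that of the member, and 3 also lay in the window of another protein-coding gene. Their widths ran from 606 to 1208 bp with a median of 851 bp, and the median of the whole list was 851 bp.

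All 17 overlapped H3K4me1 (100%, interval 80.5 to 100%), against 78.8% of all 4934 Runx3-bound regions and 86.3% of the 3700 within 20 kb of a protein-coding gene. The midpoint lay inside the mark for all 17, against 66.1% of all and 70.8% of the 3700. All 17 were covered over at least 50% of their length, against 68.8% of all and 73.9% of the 3700. The least covered was the Cd28 promoter region, over 63.3%. H3K4me1 flanked the region within 1 kb on both sides in 15 of 17 (88.2%, interval 63.6 to 98.5%), against 72.6% of all and 79.9% of the 3700. The exceptions were the Cd28 promoter and the Cd28 region at +35.5 kb. Seen from the other list, 18 of the 129 H3K4me1-marked regions overlapped Runx3 (14.0%, interval 8.48 to 21.2%), against 5.49% of all. Median widths were 2511 bp where Runx3 overlapped and 1188 bp where it did not, and over the whole list the medians were 2260 and 946 bp. A wide region meets a Runx3-bound one more readily, so the shares are not corrected for width.

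At 7 of the 9 genes the TSS lay inside an H3K4me1-marked region, against 17.4% of all protein-coding genes. Cd44 missed by 12 bp and Cd226 by 280 bp. In all 7 the region reached further upstream than downstream, with a median of 1680 bp upstream and 259 bp downstream. Among the 3886 protein-coding genes with a TSS in the mark, 60.7% had the longer arm upstream, with medians of 650 and 370 bp. At Cd28 the mark ended 11 bp and at Icos 57 bp downstream of the TSS, and it resumed 3092 and 850 bp downstream. At Cd69 the break was the shortest, from 130 to 145 bp downstream.

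**Figure D2:**
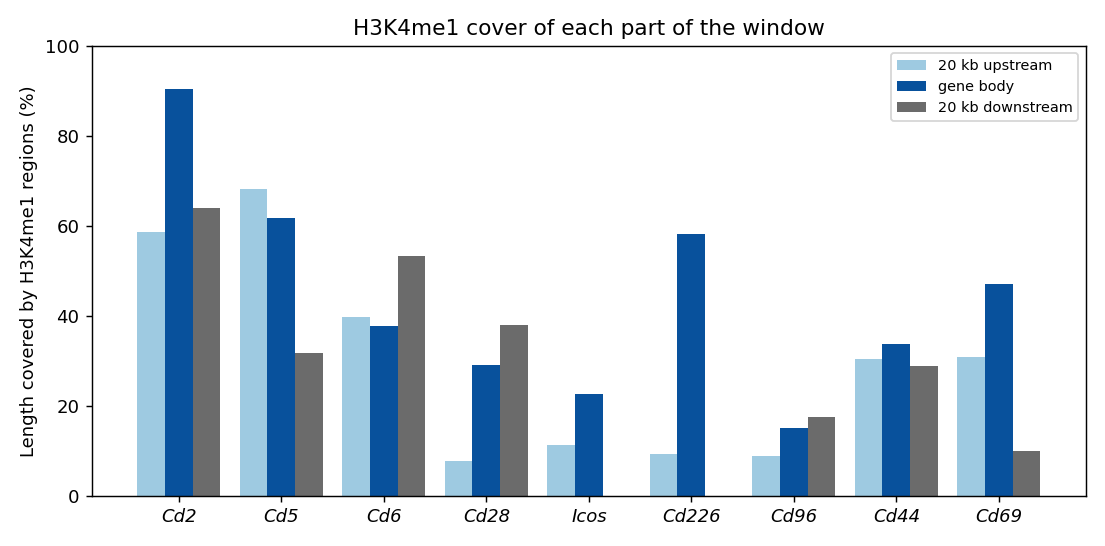
Share of length covered by H3K4me1-marked regions (y axis, %) in the 20 kb upstream, the gene body and the 20 kb downstream of each of the 9 genes (bars). The body of Cd2 reaches 90.4%, and the downstream stretch of Icos and Cd226 is at 0%.

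H3K4me1 cover went with the number of Runx3-bound regions over all protein-coding genes. The median cover was 3.88% for the 17921 genes with none, 14.1% for the 3385 with 1, 23.8% for the 742 with 2, 27.9% for the 196 with 3 and 32.7% for the 106 with 4 or more. The median of the 9 genes was 32.5%, against 5.75% for all genes and 16.4% for the 4429 genes with any Runx3-bound region. Among the 9 themselves, the genes with 1 Runx3-bound region ranged from 11.7% (Icos) over 32.5% (Cd44) and 42.0% (Cd6) to 68.1% (Cd2). Those with 2 had 14.4% (Cd96), 39.2% (Cd226) and 53.9% (Cd5), and Cd69 with 3 and Cd28 with 4 had 24.8 and 26.4%, within the range of the others. Long windows meet more regions. Of the genes in the middle class by window length (47.4 to 69.4 kb), 20% held Runx3, and of those in the long class (from 69.4 kb) 26.8%. Of the 9 genes, 4 fall in the middle class and 5 in the long class.

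**Figure D3:**
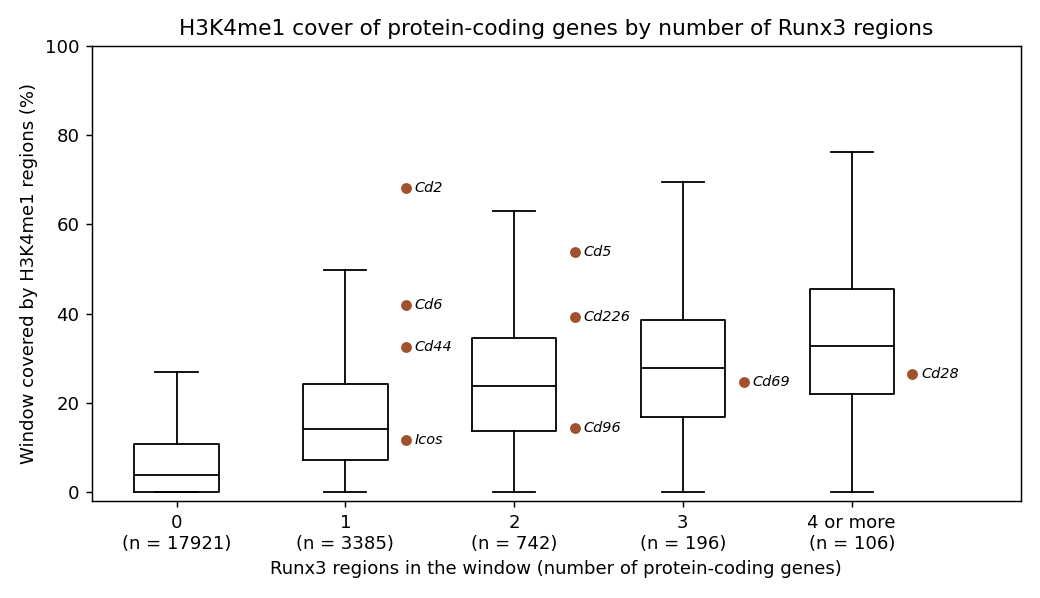
H3K4me1 cover of the window (y axis, %) for all protein-coding genes grouped by number of Runx3-bound regions (x axis), as boxes with median and quartiles and whiskers to 1.5 times the box height, outliers not drawn, with the 9 genes as brown points beside their class. Cd2, Cd5, Cd6, Cd44 and Cd226 lie above the upper quartile of their class, Cd28, Cd69, Icos and Cd96 within the box.

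A RUNX word lay in the 200 bp around the midpoint in 12 of the 17 regions (70.6%, interval 44.0 to 89.7%), against 66.0% of all Runx3-bound regions. In windows of 200 bp placed 5 kb to either side the share was 29.4% (10 of 34) at the 9 genes and 27.8% over the list. Over the whole region it was 15 of 17 (88.2%), against 88.8% of all, and the exceptions were the Cd5 region at -12.6 kb and the Cd226 region at +20.7 kb. For single words the counts are again of the 200 bp around the midpoint. TGTGGT was the word in 10 of the 17, against 46.6% of all. TGTGGC occurred in 2 regions, of Cd5 and Cd226, against 22.4% of all. TGCGGT occurred in 1, Cd96 downstream, and TGCGGC in 1, Cd69 far upstream, against 10.7% and 5.43% of all. In 3 regions there were 2 or more matches in the 200 bp (17.6%, interval 3.80 to 43.4%), against 28.9% of all.

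ETS factors are frequent partners of Runx proteins in lymphocytes. An ETS word (AGGAAA or AGGAAG or CGGAAA or CGGAAG, both strands) lay in the same 200 bp in 11 of 17 regions, against 63.8% of all, and RUNX and ETS words together in 7 (41.2%, interval 18.4 to 67.1%), against 44.3%. Pairs were closest in the far upstream Cd69 region and in the Cd96 promoter, 4 bp apart. In the 200 bp the AP-1 word TGACTCA or TGAGTCA was in none of the 17 (0%, upper limit 19.5%), against 4.58% of all. Over the whole region it was in 2 (11.8%), those of Cd226 and Cd96 downstream, against 16.5% of all. The TCF/LEF word CTTTGA lay in the 200 bp of 3 regions and the E-box word CACCTG in that of 3, against 18.8% and 13.5% of all. Over the whole region each of these words lay in 10 of 17 (58.8%), against 51.8% and 44.4% of all. A match is a description of the letters and not a bound site, and a window without one says nothing about the factor.

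**Figure D4:**
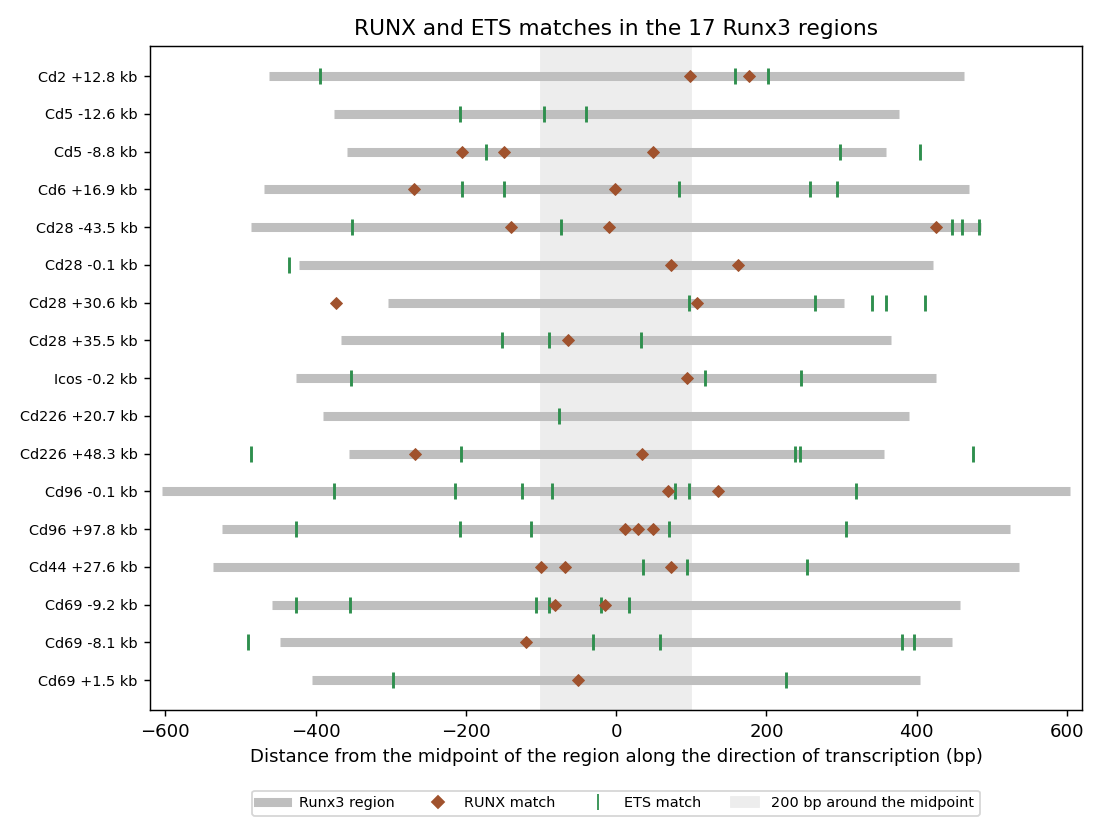
Positions of RUNX (brown diamonds) and ETS (green ticks) matches within 500 bp of the midpoint of each of the 17 Runx3-bound regions (grey bars), in bp along the direction of transcription (x axis), 1 region per line with its distance from the TSS. A RUNX match lies wholly in the shaded 200 bp in 12 regions (that of Cd2 crosses its edge), and Cd96 at +97.8 kb has 3 there.

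Other genes of the same signalling system were compared by list. Of 8 ligand genes 2 held Runx3, Pvr and Cd86 with 1 region each, and Cd48, Cd80, Alcam and Icosl held none. H3K4me1 covered a median of 17.7% of their windows, up to 40.8% at Icosl. Of 24 genes for proteins that carry or limit the signal inside the T cell, 18 held Runx3 and 11 held 2 or more. Prkcq, for protein kinase C theta, had 5 regions and 40.4% cover, and Lck, the kinase bound by Cd4 and Cd8, had 3 and 39.4%. The adaptor gene Cd2ap had none and 19%. Their median cover was 33.9%. Of 18 other activating or adhesion receptor genes 14 held Runx3 and 4 held 2 or more. The median cover of these 18 was 27.3%, up to 69.0% at Cd27, which had 3 regions.

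Of 10 inhibitory receptor genes 6 held Runx3, each with 1 region, among them Ctla4, Pdcd1 and Lag3, and their median cover was 11%. Of 10 B-cell genes 3 held Runx3, among them Cd79a with 2 regions, and the median cover was 21.2%. Beside 9 of 9 with a median of 2 regions and 32.5% cover for the genes described here, and 19.8% of all genes with Runx3, these counts are a description of lists of unlike size.

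As a check of the cells, the 5 genes listed as CD8 T-cell markers, Cd8a, Cd8b1, Cd3e, Cd3d and Cd3g, all held Runx3, with 29.4 to 50.4% cover. Windows of neighbouring genes such as Cd8a and Cd8b1 can share regions, so the 5 are not independent counts. All 3 B-cell markers carried H3K4me1, over 19.9 to 41.2%, and 2 held Runx3. Among myeloid markers Lyz2 was at 0%, Csf1r at 9.4% and Itgam at 31.2%, and Itgam held 1 Runx3-bound region. Among NK markers Ncr1 was at 0% and Klrb1c at 23.5%, and neither held Runx3. Whether the H3K4me1 or Runx3 at markers of other cell types comes from other cells in the preparation was not tested, and a list cannot tell fewer cells from a weaker mark per cell.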

How the data were processed

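ChIP-seq samples of resting splenic CD8-TC (3 Runx3, 2 H3K4me1, 2 NIS) were used as the authors' deposited region lists. The authors aligned reads of 40 to 42 bp to mm9 with ELAND, kept uniquely aligned reads, joined the repeats, scaled the larger data set to the smaller and called peaks with MACS 1.4 against NIS. The submitters' processing notes name CASAVA 1.6 and 1.7. The deposited values are region starts and ends in bp, without score, fold or p-value. Both lists share the NIS control.

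Starts were moved by 1 bp to browser coordinates. Genes were those of GENCODE vM1 on NCBIM37 (mm9). The TSS was the outermost of the protein-coding transcripts. Regions were assigned by midpoint with a 20 kb margin, overlap needed 1 bp, and words were searched on both strands. Python 3.11.15, pysam 0.24.0, pandas 2.3.3, numpy 2.4.6 and scipy 1.17.1 were used, and the counting was tested on simulated data. All 9 genes are named, and every Runx3-bound region at them is counted. Some items are not reported here. The members and lists were chosen with earlier results of these data known. Nectin1, Nectin2, Carmil2 and Tsad were counted under the older or official symbols Pvrl1, Pvrl2, Rltpr and Sh2d2a, and Cd58 was not found in the annotation used.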

Additional observations from a re-analysis of the deposited data

How the results depend on the processing

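Of 25 alternatives over 6 results, 19 stayed within 1.5 times a count or within the interval of a share, and 6 did not. A margin of 5 kb left 10 Runx3-bound regions at 8 genes, without Cd5, against 13.0% of all protein-coding genes, and a margin of 50 kb gave 21 at all 9, against 30.8%. Cd5 also lost both regions when only the nearest protein-coding TSS counted. With neighbours closer than 1000 bp joined, 52 H3K4me1-marked regions were counted, and 80 when those below the median width were dropped. Among genes with at least 1 H3K4me1-marked region, 25.7% held Runx3. Setting the gene body by protein-coding transcripts alone, chosen after seeing the data, left 16 Runx3-bound and 128 H3K4me1-marked regions. No paired analysis was possible because the repeats of an antibody were joined before calling. Without read counts the depth limits of single regions are unknown, and a region missing from a list is not shown to be unbound. The mice were ICR and the sequence is that of the reference, so a word may differ in the animals.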
